A study of Arvicanthis niloticus with 59 samples.

Results

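The genes described are 38 cell cycle genes, taken as the lines of the deposited tables whose symbol is on a fixed list of members; all 38 were found among 18970 genes. They were split into 13 S phase members, which license, start or carry out DNA replication or supply its nucleotides, and 25 mitosis members, which drive or build cell division. The RNA came from Arvicanthis niloticus, the Nile grass rat, a rodent active by day. The 59 libraries covered 48 sampled sites in 22 organs of 4 animals, and every library was labelled healthy tissue with no treatment and made from polyadenylated RNA. An organ here is the part of a library title before the first dot. Eye therefore includes a midbrain site, kidney an adrenal gland and an artery site, and adipose another adrenal gland site. In kidney the mean level of the members was 3.76 at the artery and 3.61 at the adrenal site, against 2.22 in cortex (log2(TPM + 1)). Animal T3F gave 38 libraries, T173F gave 12, T426 gave 8 and T424 gave 1, the testis. The labels give no age for any animal. Libraries of 2 animals were present for 10 sites, so most sites have a single library and no replicate.

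A cell that divides first loads the Mcm2-7 helicase onto replication origins, then switches on the E2F targets and cyclin E that open S phase, and copies its DNA around the sliding clamp Pcna. Cyclin A and B with Cdk1 then drive entry into mitosis, where the Aurora and Polo kinases, the kinetochore, the kinesin motors and the spindle checkpoint sort the chromosomes. The checkpoint ends when Cdc20 and Ube2c turn on the anaphase-promoting complex, which marks the cyclins for destruction. Most of these genes are transcribed in a periodic way, so their RNA in a tissue is widely used as a sign of dividing cells; thymus, bone marrow, germinal centres, intestinal crypts, ovarian follicles and basal squamous epithelium are known for such cells. In bulk tissue, fewer dividing cells and less RNA of these genes per dividing cell cannot be told apart.

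Total expected counts per library ran from 678819 in the testis to 41309569, with a median of 16406604. A few libraries went against their labels or carried markers of a different organ. The library labelled liver of T3F had a summed level of 32470 TPM for 6 alveolar epithelium genes (Sftpc, a surfactant protein, 23830 TPM) and 840.3 TPM for 7 hepatocyte genes, and the library labelled lung of T3F had 13.15 and 125900 TPM for the same lists. The pancreas library of T173F had 1424 TPM for 7 acinar enzyme genes against 341700 TPM in that of T3F. Male germ cell genes summed to 122800 TPM in the T426 retina, 46330 TPM in its hippocampus, 22890 TPM in its femur and 2081 TPM in its sciatic nerve, against 144200 TPM in the testis of T424. The T426 renal pelvis held 20770 TPM of the hepatocyte genes. Counts of called members are also given without these 8 libraries. In 7 further libraries, all of T3F, a list of another organ summed to over 2000 TPM: acinar enzyme genes in muscle (12850 TPM), colon (10760 TPM) and sciatic nerve (4601 TPM), and hepatocyte genes in the pigment epithelium (34260 TPM), medulla oblongata (7644 TPM), cornea (7116 TPM) and cerebellum (2998 TPM). The sciatic nerve of T426 held 74330 TPM of acinar enzyme genes.

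The mean log2(TPM + 1) of the 38 members, where TPM is a length-scaled share of a library's transcripts, was highest in thymus at 7.24. Bone marrow came next at 6.35, followed by bone (femur) and spleen, both at 4.95, ovary at 4.83, intestine at 4.32 and testis at 3.83. Skeletal muscle was lowest at 1.29, below pancreas at 1.54 and heart at 1.98. Without the 8 libraries pancreas (0.583) and liver (1.08) lay below muscle, while bone was at 5.86 and the first 9 organs kept their ranks. The order is to be read against an SD between animals of 0.841 (root mean square over the 10 sites with 2 animals). That SD was largest at liver (1.405), pancreas (1.356) and femur (1.283), each with 1 of the 8 libraries. At the replicated sites with none of the 8 it was 0.062 (duodenum), 0.136 (muscle) and 0.206 (ovary). Thymus lay 0.888 above bone marrow and bone marrow 1.40 above bone, while no step among bone, spleen and ovary exceeded 0.121, and the 13 organs from uterus down to heart formed a slope in which no step exceeded 0.310. Neighbours in that slope did not differ by more than the SD of 0.841, though some steps exceeded the SDs of duodenum, muscle and ovary. On log2(CPM + 1), counts per library total with no scaling by gene length, bone marrow ranked 1 and thymus 2.

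**Figure D1:**
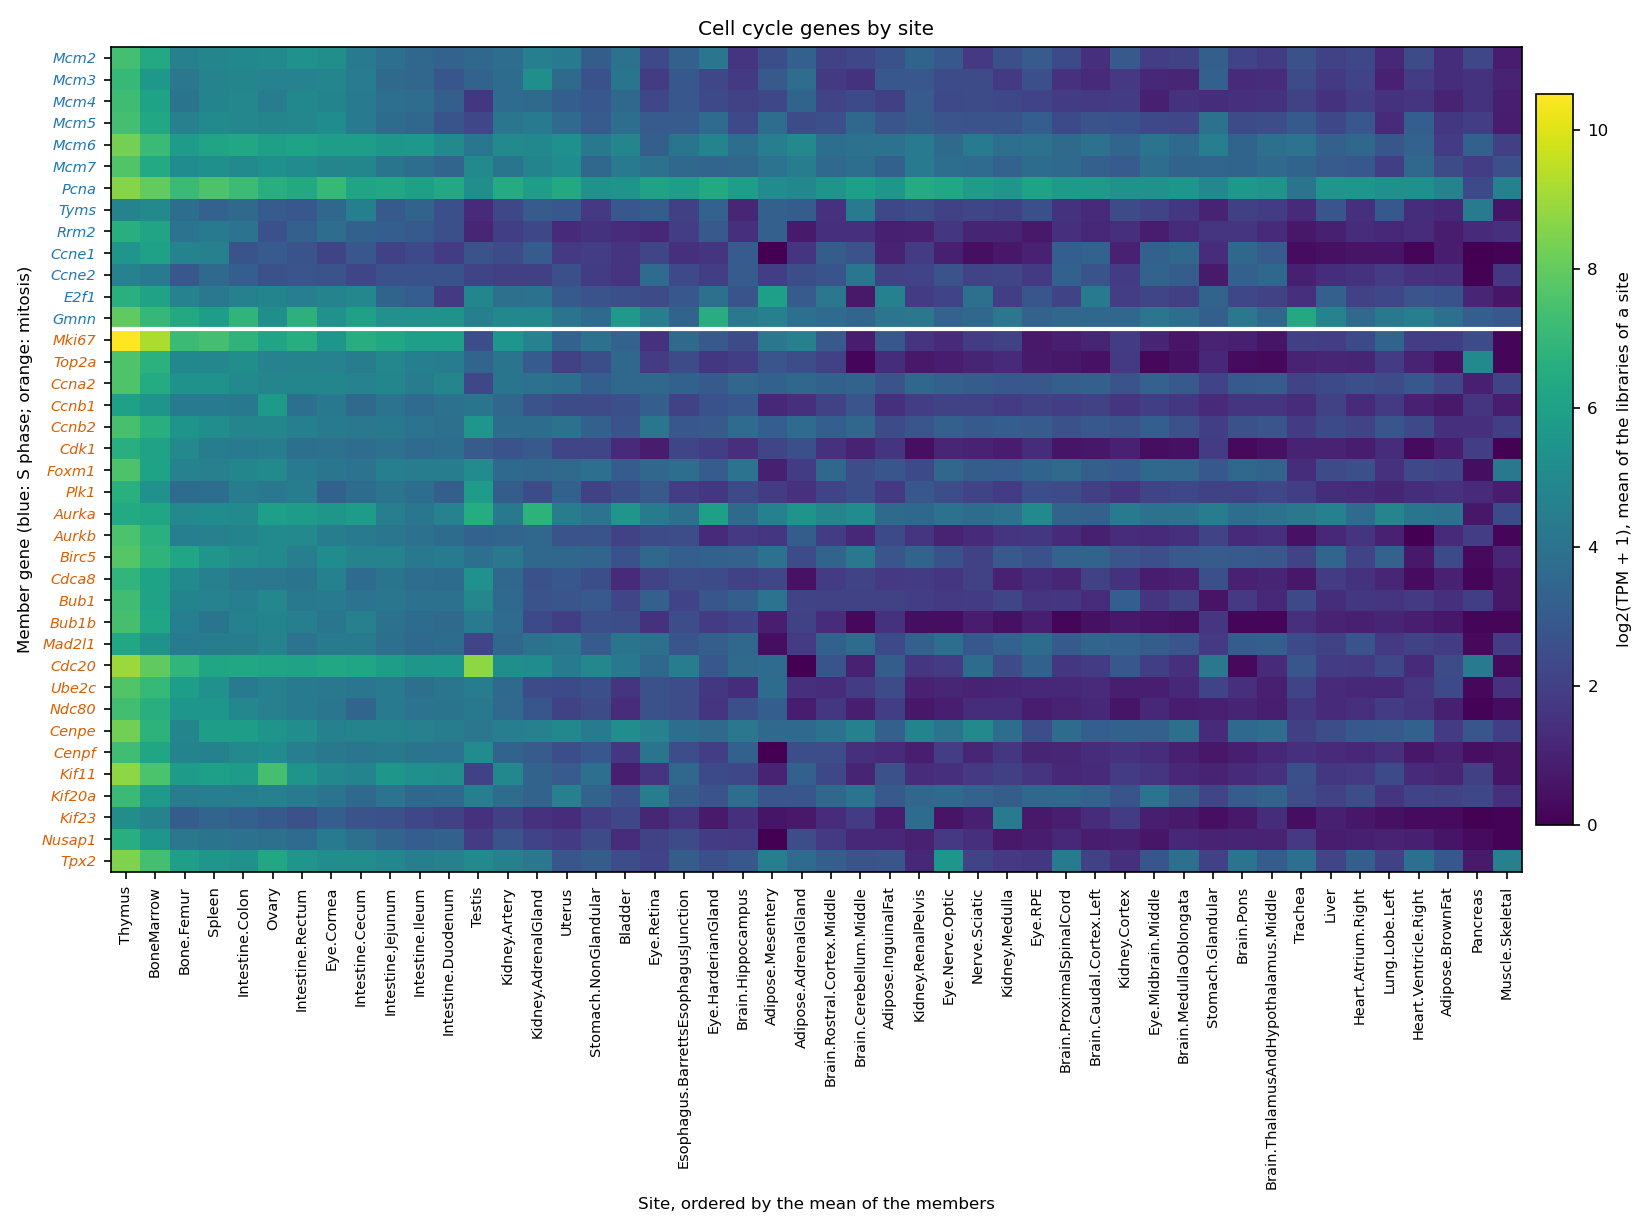
Level of each of the 38 members (rows; blue names S phase, orange names mitosis) at each of the 48 sites (columns, ordered by the mean of the members), as log2(TPM + 1) averaged over the libraries of a site. Thymus and bone marrow are bright over nearly the whole list, and single bright cells outside them include Cdc20 in testis, Kif11 in ovary, Top2a in pancreas and Aurka at the kidney adrenal site.

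On TPM most members shared one order of sites: 32 of the 38 had their highest library in thymus, and in 30 of these bone marrow came second. The 32 were 11 of 13 S phase and 21 of 25 mitosis members. On log2(CPM + 1) thymus exceeded bone marrow in only 6 of 13 S phase and 12 of 25 mitosis members. The share of all genes highest in thymus was not computed. The members differed in how far thymus stood above a typical site. For the S phase members the log2 ratio of thymus to the median site had a median of 3.95 (2.15 to 5.16), and for the mitosis members 4.82 (2.05 to 7.61). The 6 exceptions were Tyms and Top2a, highest in the T173F pancreas; Ccnb1 and Kif11, highest in the T3F ovary; Ccne1, highest in bone marrow; and Aurka, highest at the adrenal site of the kidney.

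The 6 helicase subunits Mcm2 to Mcm7, which unwind DNA at replication origins, were all highest in thymus with bone marrow second. Mcm6 was the most abundant, at 319 TPM in thymus, 143.7 in marrow and 108.7 in the T3F femur, with a median of 16.99 TPM over libraries. Mcm2 was 163 TPM in thymus, 79.74 in marrow, 58.56 and 8.61 in the femurs of T3F and T426, and 0.293 in the T426 liver, the lowest library. The femurs of T3F and T426 thus stood far apart for the same gene. In the single testis library, the shallowest of the series, the values of the subunits were uneven. Mcm7 was 31.38 TPM (111.89 counts), while Mcm4 was 2.23 (7 counts) and Mcm5 3.66 (12 counts).

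Pcna, the sliding clamp of the replication fork, was detected in every library and never fell below 3.34 TPM (T3F pancreas). It was 387 TPM in thymus, 255.4 in marrow and 59.16 at the median, the highest median of the 38 members. Rrm2, the small subunit of the reductase that makes deoxynucleotides, was 95.42 TPM in thymus, 68.87 in marrow and 43.61 in the T3F femur against a median of 1.69. Tyms, which makes thymidylate, was 24.8 TPM in thymus and 29.63 in marrow but 344 TPM in the T173F pancreas, where the T3F pancreas had 0.276. The 2 pancreas libraries therefore gave the highest and the lowest Tyms of the series.

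The G1/S regulators followed the common order less closely. Ccne1 and Ccne2 encode the E-type cyclins that activate Cdk2; Ccne1 was 63.44 TPM in bone marrow, 43.26 in thymus, and 0 in 5 libraries, and Ccne2 was 24.43 TPM in thymus and 19.31 in marrow. Their Spearman correlations with the mean of the other members over the 48 sites were the lowest of the list, at 0.528 and 0.469. In the 8 brain libraries of T3F both cyclins were present: the cerebellum held 5.48 TPM of Ccne1 and 16.72 TPM of Ccne2. E2f1, the transcription factor that turns on replication genes, was 101.1 TPM in thymus, 65.86 in marrow and 27.75 in testis. Gmnn, geminin, which blocks a second round of licensing, was 248.5 TPM in thymus and 126.1 in marrow, and was still 93.83 TPM in the Harderian gland of the eye socket.

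Mki67, a protein that coats mitotic chromosomes and is a standard proliferation marker, showed the widest range: 1460 TPM in thymus, 594.5 in bone marrow, 289 in the T3F femur and 170.3 in spleen against a median of 6.57. It was 0.301 TPM in the muscle of T3F and 0 in that of T426. In the testis Mki67 was 4.74 TPM, which rests on 9 counts. Top2a, the topoisomerase that untangles sister chromatids, was 198.1 TPM in thymus and 102.6 in marrow. The T173F pancreas gave 837.3 TPM of Top2a from 5710 counts, and the T3F pancreas 0.255 TPM. Whether other transcripts were counted under the symbols of Top2a and Tyms there was not tested. In that T173F library 11 of the 38 members were listed at 0, among them Birc5, Aurka and Ube2c, while Cdc20 was 179.8 TPM. Cdc20 rested on 130 counts there and Cenpf and Nusap1 on 2 each, so a level of 0 can reflect low depth.

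The cyclins and kinase of mitotic entry were led by Ccna2 (cyclin A2), at 195.7 TPM in thymus, 88.47 in marrow and 9.27 at the median. Cdk1, the kinase they activate, was 97.8 TPM in thymus and 64.65 in marrow, and reached 1 TPM in 38 of the 59 libraries. Ccnb2 (cyclin B2) was 175.9 TPM in thymus, 94.12 in marrow and 44.5 in testis, with 44.29 in the T426 retina. Ccnb1 (cyclin B1) was 137.4 TPM in the ovary of T3F and 19.66 in that of T173F, against 64.28 in thymus. The 2 ovaries thus bracketed the thymus for Ccnb1, and differed likewise for Kif11. Foxm1, the transcription factor of G2 and mitosis genes, was 187.3 TPM in thymus and 68.38 in marrow, and stood at 38.51 TPM in the T3F muscle and 7.59 in that of T426. In these libraries 20 and 16 of the 38 members reached 1 TPM.

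Among the mitotic kinases, Plk1, the Polo kinase, was 102.3 TPM in thymus and 54.82 in testis, ahead of 39.13 in marrow. Aurka, the Aurora kinase of the spindle poles, was 110.8 TPM at the adrenal site of the kidney, 88.99 in testis, 85.4 in thymus and 72.12 in marrow. It reached 1 TPM in 58 of the 59 libraries. Aurkb, Birc5 (survivin) and Cdca8 (borealin) belong to the chromosomal passenger complex, which corrects faulty attachments to the spindle. They were 182.2, 212.1 and 118.7 TPM in thymus and 102.2, 112 and 67.14 TPM in marrow. In testis Cdca8 reached 38.4 TPM, while Aurkb was 9.02 and Birc5 13.33.

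The spindle checkpoint kinases Bub1 and Bub1b were 153.6 and 169.1 TPM in thymus and 66.49 and 71.16 in marrow. Bub1b, whose product inhibits the anaphase-promoting complex, was low in most places: its median was 1.73 TPM, and it reached 1 TPM in 32 of 59 libraries, fewer than any other member. Mad2l1, a second checkpoint protein, was 78.8 TPM in thymus and 40.94 in marrow. Cdc20, which activates the anaphase-promoting complex, was 485.6 TPM in thymus, 427.8 in testis and 244.3 in marrow against a median of 11.48. Ube2c, the ubiquitin-conjugating enzyme of that complex, was 200.6 TPM in thymus, 132.3 in marrow and 20.35 in testis.

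At the kinetochore, Ndc80, which binds microtubules, was 160.6 TPM in thymus and 97.56 in marrow. Cenpe, a kinetochore motor, was 307.1 TPM in thymus and 17.23 at the median, and Cenpf was 153.2 TPM in thymus and 66.3 in the T426 retina. Of the kinesins, Kif11, which pushes the spindle poles apart, was 516.2 TPM in the T3F ovary (4971 counts), 420.5 in thymus and 56.42 in the T173F ovary (319 counts). Kif20a and Kif23, which act at the midzone of the dividing cell, were 143.9 and 35.72 TPM in thymus. Kif23 was 14.5 and 9.95 TPM in the renal pelvis libraries of T173F and T426, and 18.4 TPM in the kidney medulla of T3F, above its median of 1.59 TPM. Nusap1 and Tpx2 bundle and seed spindle microtubules; they were 94.87 and 353.7 TPM in thymus. Tpx2 was also 21.15 and 24.22 TPM in the muscles of T3F and T426, while Nusap1 was 0.125 and 0 TPM there.

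Pairs of mitosis members followed each other over the 48 sites more closely than pairs of S phase members. The median Spearman correlation was 0.731 over 300 mitosis pairs, 0.589 over 78 S phase pairs and 0.641 over 325 pairs across the lists. They were 0.752, 0.646 and 0.684 without the 8 libraries. These correlations are descriptions: the sites share animals and libraries, and most come from T3F. Of 17926 genes outside the members and the listed pathway genes, with a mean of at least 1 TPM, those whose levels most closely followed the members' mean were Kif18b (0.895), a mitotic kinesin, and Esco2 (0.893), which sets sister chromatid cohesion. Next came Ezh2 (0.890), a histone methyltransferase, Hjurp (0.885), the loader of centromeric histone, Hmgb2 (0.884), a chromatin protein, and Kifc1 (0.883), another kinesin. Mms22l, Kntc1, Ska1 and Ddx39 completed the 10, at 0.869 to 0.874. Hmgb2 was the most abundant of them in thymus, at 3627 TPM, with 32.08 TPM at the median site. Of the pathway genes left out here, 6 had a correlation above that of Kif18b, up to 0.931.

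The balance between the 2 lists differed in sign among organs. The S phase mean minus the mitosis mean was -0.52 in thymus, -0.24 in bone marrow, -0.29 in bone, -0.54 in ovary and -0.93 in testis, and was positive in every organ from uterus (0.546) down the ranking, with 0.698 in brain and 0.757 in heart. In spleen it was -0.02. Between 2 animals at 1 site this difference had an SD of 0.551 (root mean square). The values of thymus, marrow, bone, ovary, intestine and spleen lie within about 1 such SD of 0. So do those of uterus, kidney, muscle, stomach, lung and esophagus. The SD was largest in retina (1.309) and hippocampus (0.866), whose T426 libraries held male germ cell genes. At the replicated sites with none of the 8 libraries it was 0.424 (duodenum), 0.224 (muscle) and 0.165 (ovary). Against these smaller SDs, thymus, ovary and uterus lie more than 1 SD from 0. Some sites with high members had values just above 0, with 0.084 in cornea, 0.103 in cecum and 0.030 in rectum. The brain value was 0.774 without the 8 libraries. In intestine the sign depended on length scaling: the difference was -0.24 on log2(TPM + 1) and 0.070 on log2(CPM + 1). On log2(CPM + 1) the difference was -0.204 in thymus, -0.721 in testis and 0.947 in brain. For the other organs, bone marrow, bone, spleen and ovary among them, it was not computed on that scale. Whether their signs depend on length scaling was therefore not tested.

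**Figure D2:**
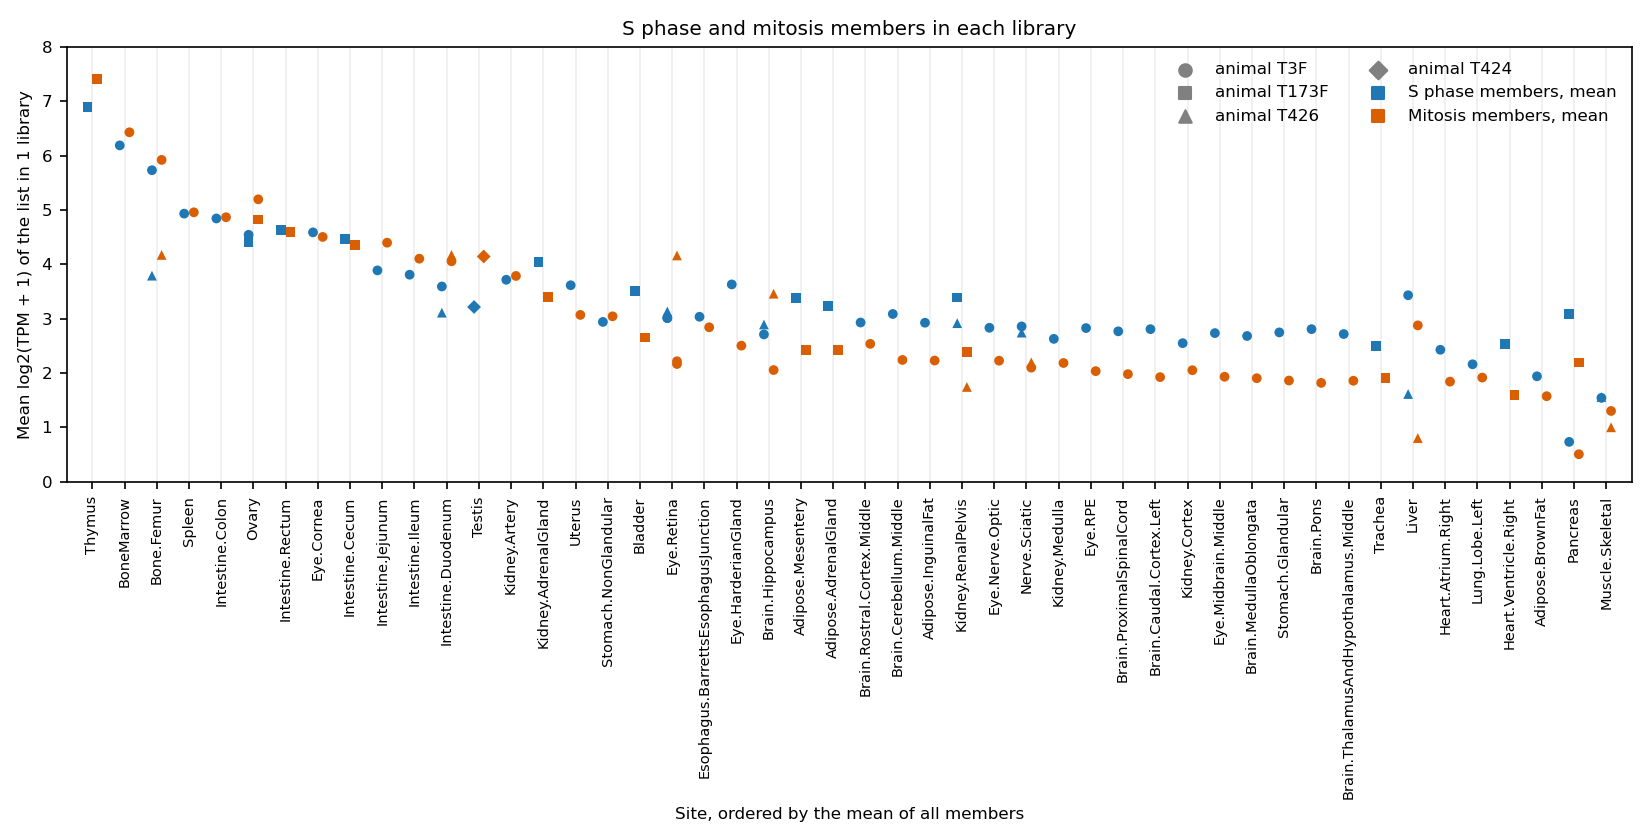
Mean log2(TPM + 1) of the S phase members (blue) and of the mitosis members (orange) in each of the 59 libraries, by site, with a symbol for each animal. The orange points lie above the blue ones in thymus, marrow and ovary and below them at most sites to the right of uterus, and the 2 animals of femur, retina, hippocampus, liver and pancreas stand apart.

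The testis had the lowest S phase minus mitosis value of the 22 organs, on 1 library of 678819 counts. Its distance from ovary and thymus was less than the SD of 0.551 between animals and that of duodenum (0.424), but more than the SDs of muscle (0.224) and ovary (0.165). By the mitosis mean it ranked 7 of 22 organs and by the S phase mean 11. The 4 libraries with the lowest S phase minus mitosis value were T426 duodenum (-1.06), T426 retina (-1.03), the testis (-0.93) and T3F ovary (-0.65). Male germ cell genes summed to 122800 TPM in that retina and 144200 TPM in the testis, but to 122.4 TPM in the T426 duodenum, where 12 of the 14 listed genes were at 0. The S phase members rested on few reads in that duodenum library, from 0 counts for E2f1 and 3 for Ccne1 to 128.84 for Pcna.

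**Figure D3:**
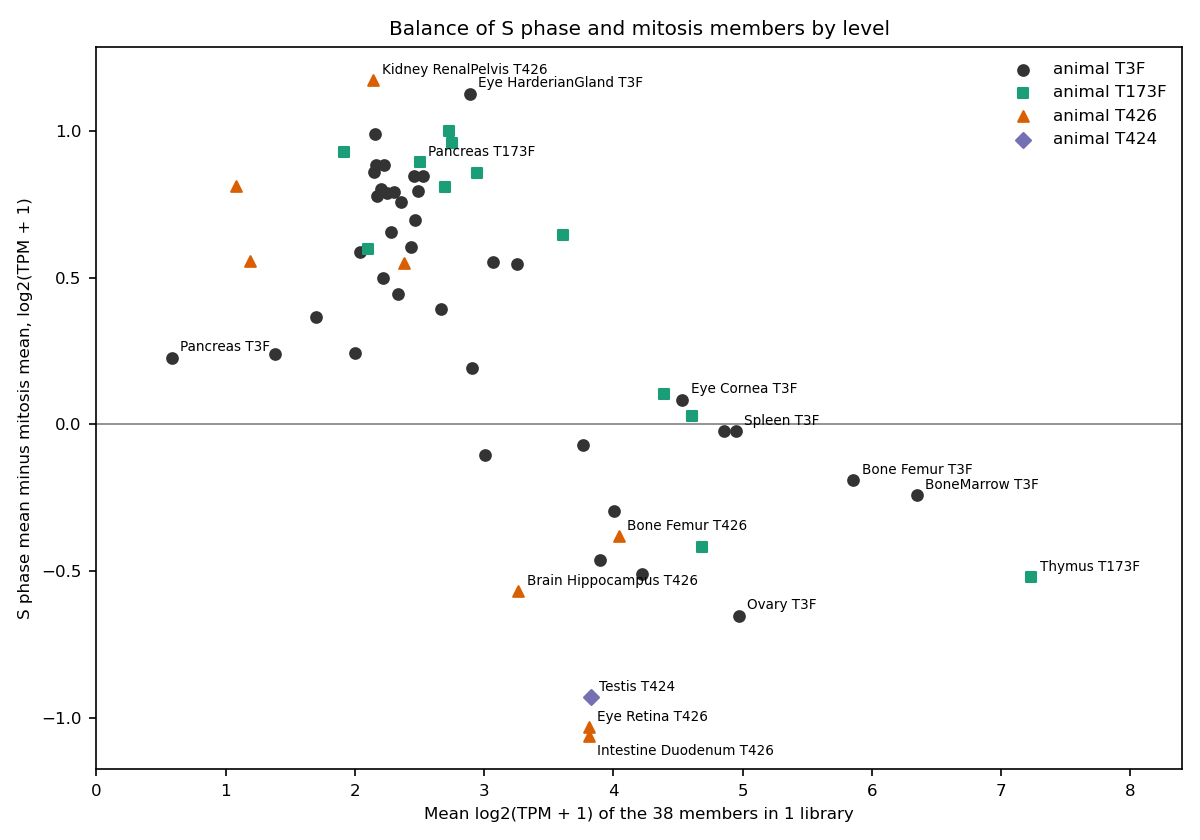
S phase mean minus mitosis mean (vertical axis, log2(TPM + 1)) against the mean of the 38 members (horizontal axis) in each library, with colour and symbol for the animal. Values fall below 0 in most libraries with a mean above about 4, and the testis and the T426 retina and duodenum lie lowest.

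Genes were then tested among the 10 sites with libraries of 2 animals, with the quasi-likelihood test of edgeR fitted to all genes. In the joint test 31 of the 38 members differed among sites (11 of 13 S phase and 20 of 25 mitosis members), where 41.4% of all tested genes did. The smallest adjusted p of the S phase members was that of Rrm2 (edgeR adjusted p = 0.00019), and of the mitosis members that of Ube2c (edgeR adjusted p = 0.000503). The count was 35 without the 8 libraries (48.7% of all genes). The 7 that did not pass were Ccne2, E2f1, Foxm1, Plk1, Aurka, Mad2l1 and Cenpe. A site was then set against the mean of the other 9, and calls needed an adjusted p under 0.05 with a log2 fold change of at least 1 in size.

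In femur, a bone with its marrow, 36 of 38 members were higher (12 S phase, 24 mitosis), where 9.72% of all genes were. The median log2 fold change was 3.33 for the members and 0.027 for all genes. Mki67 was 289 TPM in the T3F femur and 70.18 in that of T426, and its log2 fold change was 5.68 ± 0.71 (SE; edgeR adjusted p = 8.98e-05). Ccne1 (42.44 and 14.49 TPM) rose by 5.37 ± 0.62 (SE; edgeR adjusted p = 4.36e-05), and Ube2c (103.5 and 32.38 TPM) by 5.35 ± 0.54 (SE; edgeR adjusted p = 1.39e-05). Tyms and Cenpe were not called, at 2.29 ± 0.81 and 1.68 ± 0.69 (SE). All 7 granulocyte precursor genes and 7 of 8 red cell precursor genes were also higher in femur, with 5 of 5 tested B cell genes and 6 of 6 muscle fibre genes (13470 and 2196 TPM in T3F and T426), and so were 6 of 14 male germ cell genes, the latter summing to 56.26 TPM in the T3F library and 22890 TPM in the T426 library. Without the 8 libraries named above, T426 femur included, 37 members were higher (9.59% of all genes), with the T3F femur as a lone library. All fits without these 8 libraries in the comparisons of sites rest on 3 replicated sites and 3 residual degrees of freedom, against 10 with them.

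In duodenum 5 of 38 members were higher, all of them mitosis members, where 8.33% of all genes were. The called members were Mki67, Ccna2, Cdk1, Ube2c and Nusap1, a share not far above that of all genes. Mki67 was 62.21 and 58.9 TPM in the duodenums of T3F and T426, and rose by 3.35 ± 0.77 (SE; edgeR adjusted p = 0.0107). Ccna2 (23.06 and 30.23 TPM) rose by 1.69 ± 0.43 (SE; edgeR adjusted p = 0.02). The median log2 fold change was 0.795 over the S phase members and 1.60 over the mitosis members. The count was 3 with the animal as a replicate block, and 21 without the 8 libraries, where 14.7% of all genes were called. It was 1, Mki67, without the 7 further libraries (6.34% of all genes). It was 0 without either duodenum library, 1 without the T173F ovary, 8 without the T426 retina, and 9 and 10 without the pancreas of T173F and of T3F.

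In ovary Kif11 and Ccnb1 were higher, 2 of 38 members, where 3.57% of all genes were. Kif11 rose by 4.89 ± 0.70 (SE; edgeR adjusted p = 0.00107) and Ccnb1 by 2.94 ± 0.58 (SE; edgeR adjusted p = 0.0109). In both the T3F library stood far above the T173F library, and neither was called without the T3F ovary. Whether other transcripts were counted under these symbols in that library was not tested. The median of the members was 1.17. Genes of granulosa cells, the dividing cells that surround the oocyte, summed to 8597 and 6025 TPM in the ovaries of T3F and T173F. Without the 8 libraries 19 members were called (7.63% of all genes); leaving out the T426 retina or the library labelled liver of T3F gave 6 each, and the pancreas of T173F or of T3F 4 and 5.

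In skeletal muscle 0 of 38 members were lower by edgeR, where 0.991% of all genes were. At an unadjusted p under 0.05, 20 members were lower and 2 higher, and DESeq2 called 18 lower. The shares of all genes under these other rules are not given here, so those counts cannot be read as particular to the members. The median log2 fold change was -2.27 for the members and -0.458 for all genes. Mcm6 was 2.44 and 3.72 TPM in the muscles of T3F and T426 (-2.23 ± 0.69, SE; edgeR adjusted p = 0.0705). In the T3F muscle 12850 TPM came from acinar enzyme genes, and 6 of 7 of these were called higher in muscle; their part in the result was not tested. In the T426 library, where 3 counts correspond to 1.49 CPM, 12 members were at 0. Foxm1 and Tpx2 were the 2 members on the higher side at that unadjusted threshold, at 2.02 ± 0.69 and 1.94 ± 0.75 (SE), neither of them called. The count was 8 without the 8 libraries (6.21% of all genes), where 2 members were called higher; it was 9 and 6 without the pancreas of T3F and of T173F, 3 without the retina of T3F or the liver of T426, and 1 without the T426 retina.

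**Figure D4:**
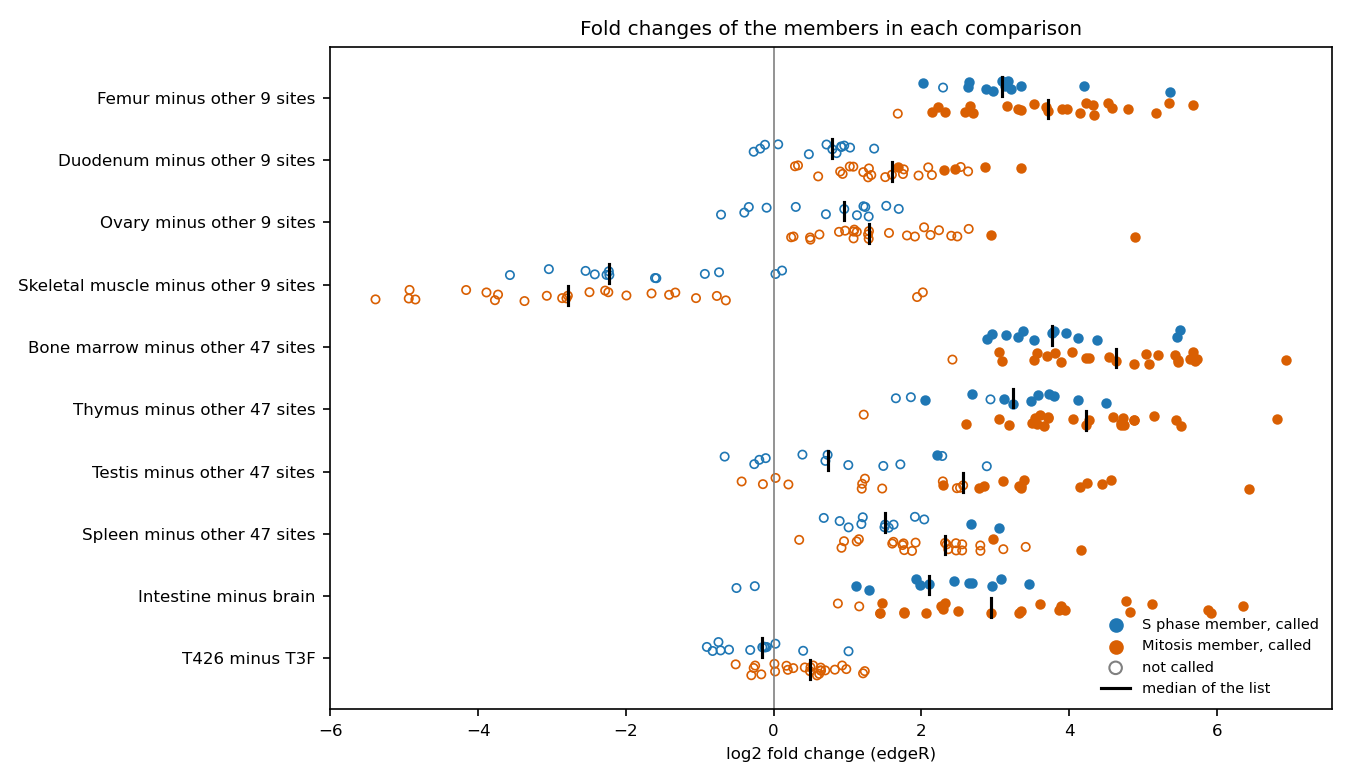
Log2 fold changes (edgeR) of the 38 members in 10 comparisons, with S phase members in blue and mitosis members in orange; filled points passed an adjusted p under 0.05 with a log2 fold change of at least 1 in size, and black bars mark the median of each list. Nearly all points are filled for femur, bone marrow, thymus and intestine against brain, and none for muscle or for T426 against T3F.

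Sites with a single library were tested in a fit of all sites, which lends a site without a replicate the spread seen at the 10 replicated sites. In bone marrow 37 of 38 members exceeded the average of the 47 remaining sites, where 6.99% of all genes were. Mki67 rose by 6.94 ± 0.59 (SE; edgeR adjusted p = 1.22e-06), Ube2c by 5.73 ± 0.49 and Rrm2 by 5.46 ± 0.35. Aurka was the member not called, at 2.42 ± 0.73 (SE; edgeR adjusted p = 0.0624). All 7 granulocyte precursor and 8 of 8 red cell precursor genes were also higher, and so were 5 of 6 muscle fibre genes. All 38 members were called without the 8 libraries (12.5% of all genes).

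In thymus 34 of 38 members were higher (10 S phase, 24 mitosis), where 5.17% of all genes were. Mki67 rose by 6.82 ± 0.59 (SE; edgeR adjusted p = 2.57e-06), Bub1b by 5.51 ± 0.78, Kif11 by 5.44 ± 0.65 and Rrm2 by 4.50 ± 0.39. The members not called were Tyms, Ccne2, E2f1 and Aurka. All 10 thymocyte genes were higher there, and they summed to 13380 TPM. Leaving out the 8 libraries gave 36 called members (11.5% of all genes). With the animal as a replicate block 2 of the 38, Rrm2 and Ccna2, were called (0.873% of all genes), while the median fold change was 3.34 against 3.72 without the block; the thymus library is from T173F, which gave a second library at few sites.

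In testis 13 of 38 members were higher, 1 of them S phase (Mcm7) and 12 mitosis, where 13.3% of all genes were. Cdc20 rose by 6.43 ± 0.78 (SE; edgeR adjusted p = 2.98e-05), Plk1 by 4.57 ± 0.70, Cdca8 by 4.44 ± 0.73 and Cenpf by 4.25 ± 0.74. Mki67 and Kif11, among the largest changes in thymus and marrow, were at 0.20 ± 1.44 and 0.026 ± 1.40 (SE) in testis, on 9 and 3 counts. The median over all genes was -1.17 with TMM scaling and -0.58 with RLE scaling, so the median of the members, 2.25, is to be read against that shift. At this depth 3 counts correspond to 4.42 CPM, and differences of low members were not detectable. Of the male germ cell list 12 of 14 genes were higher. DESeq2 called 21 members, for which the share of all genes is not given here, and 20 were called without the 8 libraries (18.4% of all genes).

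In spleen 4 of 38 members were higher, Rrm2, Ccne1, Mki67 and Ube2c, where 5.04% of all genes were. Mki67 rose by 4.16 ± 0.78 (SE; edgeR adjusted p = 0.00305) and Rrm2 by 2.67 ± 0.50 (SE; edgeR adjusted p = 0.00279). All 6 tested genes of the B cell and germinal centre list were higher, as were 7 of 8 red cell precursor, 5 of 7 granulocyte precursor, 6 of 10 thymocyte and 4 of 6 alveolar epithelium genes; their part in the result was not tested. The count was 2 with the animal as a replicate block and 26 without the 8 libraries (8.48% of all genes); it was 2 without either femur, 8 without the retina of T3F or of T426, and 9 and 10 without the pancreas of T173F and of T3F.

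The 6 intestine sites were set against the 8 brain sites, tissues with and without fast renewal. Of the 38 members 33 were higher in intestine (11 S phase, 22 mitosis), where 17.2% of all genes were. Mki67 ran from 58.9 TPM (T426 duodenum) to 113.4 TPM (colon) over the 7 intestine libraries, and the highest of the 9 brain libraries was the T426 hippocampus at 7.60 TPM. The ranges of intestine and brain did not overlap for this gene, and it rose by 6.36 ± 0.83 (SE; edgeR adjusted p = 4.42e-05). Top2a rose by 5.92 ± 1.10, Bub1b by 5.88 ± 0.96, Cdc20 by 5.13 ± 0.95 and Kif11 by 4.82 ± 0.75. Of the helicase subunits Mcm3 rose most, by 3.45 ± 0.53, and Mcm7 least, by 1.29 ± 0.33. The cyclin E genes were not called and had the opposite sign: Ccne1 was -0.50 ± 0.58 and Ccne2 -0.26 ± 0.47 (SE). Foxm1, Mad2l1 and Kif20a were not called either. Without the 8 libraries 35 members were higher (21.0% of all genes), and without the 7 further ones, colon, cerebellum and medulla oblongata among them, 29 were (13.2% of all genes).

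Within organs the members also differed between neighbouring sites, described here on 1 library a site except for duodenum. The share of all genes higher at the first site of a pair was not computed. The counts below therefore cannot be told apart from a shift of the whole library. In colon all 25 mitosis and all 13 S phase members were higher than in duodenum, with median log2 differences of 0.781 and 1.53. The colon library also held 10760 TPM of acinar enzyme genes. In cornea, whose surface is a stratified epithelium, all 38 were higher than in the pigment epithelium layer of the same animal, by medians of 2.74 for mitosis and 1.93 for S phase; hepatocyte genes summed to 7116 TPM in the former and 34260 TPM in the latter. The part of these genes in both differences was not tested. The non-glandular stomach exceeded the glandular part in 22 of 25 mitosis members (median 1.13) and 7 of 13 S phase members (median 0.158). On log2(TPM + 1) thymus exceeded bone marrow in all 25 mitosis members (median 0.988) and 11 of 13 S phase members (median 0.973). On log2(CPM + 1) it did so in 12 of 25 and 6 of 13, with medians of -0.07 and -0.07, so the order of these 2 organs, from different animals, depended on the scale.

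The other genes of the pathway were counted in 4 lists. On TPM, 29 of 35 further replication genes were highest in thymus, and 39 of 50 further mitosis genes. The share of all genes highest in thymus was not computed. The median Spearman correlations of the 35 and 50 genes with the members' mean were 0.682 and 0.798. In femur 20 of 35 replication genes and 34 of 50 mitosis genes were higher, where 9.72% of all genes were. Among them were the DNA methylation cofactor Uhrf1 (4.84 ± 0.47), the licensing factor Cdt1 (5.45 ± 0.57) and the kinesin Kif22 (4.51 ± 0.41). In testis 2 of 35 replication genes were higher and 2 lower, and 19 of 50 mitosis genes were higher and 0 lower, where 13.3% of all genes were higher and 4.51% lower; the difference between the lists was not tested. Cdca5 (8.70 ± 0.84), which protects cohesion, and Espl1 (5.73 ± 0.64), the separase that cuts it, led the latter.

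The regulators that act before S phase had lower median correlations. For 8 G1 cyclins and kinases the median correlation with the members' mean was 0.322, with 3 of 8 highest in thymus, and for 10 CDK inhibitors and pocket proteins 0.401, also with 3 highest in thymus. Ccnd3 (cyclin D3) was highest in thymus at 535.9 TPM, Ccnd1 in cornea at 399.2 TPM and Ccnd2 in rectum at 203.9 TPM. In thymus 3 of 8 G1 genes were higher (5.17% of all genes), Ccnd3 by 4.06 ± 0.51, and 0 of 10 inhibitors, although Cdkn2d had its own highest level there, 349.1 TPM. The inhibitor Cdkn1a (p21) was highest in the cecum at 1291 TPM, and was higher in intestine than in brain by 4.63 ± 0.46 (SE; edgeR adjusted p = 7.05e-06). It was also the inhibitor that rose in duodenum, by 4.79 ± 0.43.

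Animals were compared over the 7 sites that both T426 and T3F supplied, with site as a block. By edgeR 0 of 38 members were higher in T426, where 0.675% of all genes were, and 0 were lower, where 0.0764% were. At an unadjusted p under 0.05, 1 member was higher and 1 lower, and DESeq2 called 0; without the 8 libraries edgeR called 1 lower, on 1 residual degree of freedom. The differences did, however, vary by site. In retina the mean of the members was 1.34 higher in T426 on log2(TPM + 1), by 1.97 for mitosis and 0.121 for S phase members; in hippocampus it was 0.987 higher, by 1.41 and 0.181. In retina Cdc20 was 2.86 and 3.28 TPM in the left and right eye of T3F and 94.78 TPM in T426, Ndc80 was 1.30, 0.777 and 55.86 TPM, and Cenpf was 7.01, 7.68 and 66.3 TPM. Hippocampus gave 1.88 and 51.93 TPM of Cdc20 in T3F and T426, with 20 members at least 1 higher in retina and 16 in hippocampus. How many of all genes were higher by as much at these sites was not computed.

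Those were the sites where the male germ cell list stood farthest apart between the animals, at 8.61 in retina and 7.33 in hippocampus (T426 minus T3F, mean log2(TPM + 1)). The testis library held 427.8 TPM of Cdc20, 32.66 of Cenpf and 17.9 of Ndc80. The part of these germ cell transcripts in the result was not tested. In femur, where that list was 5.55 higher, the members were lower in T426 by 1.82, and 34 of 38 were lower by at least 1. How many of all genes were lower by as much in femur was not computed. Granulocyte and red cell precursor genes were lower there too, by 1.49 and 1.25. At the site labelled liver the members were 1.99 lower in T426, where the T3F library held alveolar genes. The members differed by -0.09 in duodenum, -0.19 in muscle and 0.025 in sciatic nerve.

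**Figure D5:**
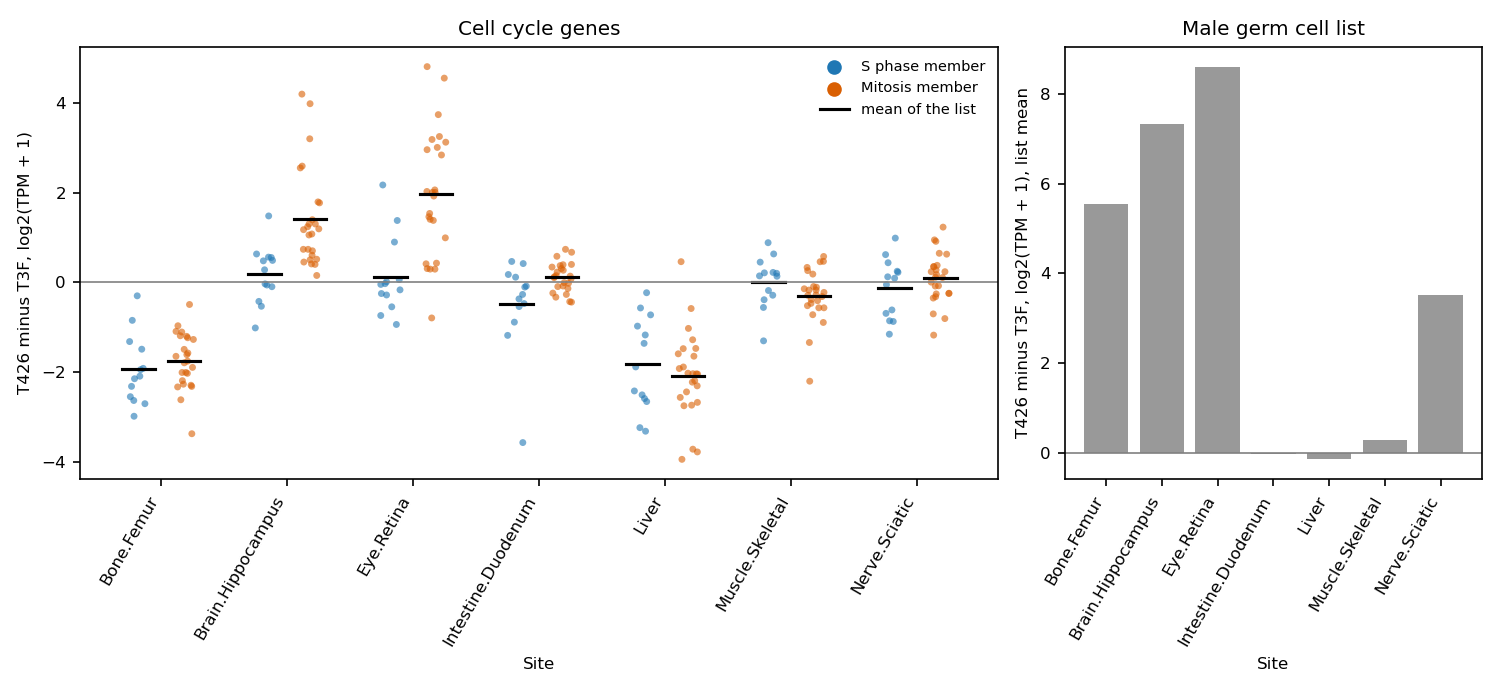
Left, T426 minus T3F in log2(TPM + 1) for each member at the 7 sites with libraries of both animals, S phase in blue and mitosis in orange, with a bar at the mean of each list; right, the same difference for the mean of the male germ cell list. The orange points rise above the blue ones in retina and hippocampus, the sites with the highest grey bars, and both colours lie below 0 in femur and liver.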

How the data were processed

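The authors deposited a table of expected counts, the estimated counts that RSEM gives per gene, and a table of TPM, a length-scaled abundance that sums to 1000000 per library, for 59 libraries; 54.76% of the expected counts were whole. Per the submitters' processing notes, RSEM (no version) and Bowtie 0.12.8 were used; genome build: not given in the sources used here. Every column name matched the title of 1 library. Levels are log2(TPM + 1), averaged over members, then libraries of a site, then sites of an organ. Expected counts were rounded and tested with edgeR 4.0.16 in R 4.3.3 (quasi-likelihood, TMM, filterByExpr, Benjamini-Hochberg over all genes); DESeq2 1.42.0 was an alternative. The retina libraries of T3F were summed, leaving 58. The fits were of 20 libraries at 10 sites, of 58 libraries with 48 site terms and a dispersion trend from the replicated sites, and of 14 libraries of T426 and T3F. Animals pair the libraries, but the main fits of sites held no term for the animal. In an alternative fit the animal served as the replicate block, since a label names the animal of every library. P-values rest on 10 residual degrees of freedom (6 for T426 against T3F; 3 and 1 without the 8 libraries that held genes of another organ, 8 and 4 without the 7 further ones) and on 2 animals a site, which are not the same pair everywhere.

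On simulated counts the femur test recovered 87% of genes changed by a log2 of 3 and 97% of those changed by 5 (17564 genes). For thymus these shares were 55% and 92% (18323 genes), and for intestine against brain 98% and 100%. Of the unchanged genes, 5 were called for femur, 12 for thymus and 19 for intestine against brain. Unchanged genes were simulated at the same mean at every site, and all genes with 1 fixed dispersion. No animal effects and no genes of another organ were simulated. The shares therefore do not show how many real changes the tests would find in these libraries.

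Any of the 38 members could be named. Of the other pathway lists, up to 3 genes per direction with the smallest adjusted p were named, and of marker lists up to 3 with the highest TPM; Ccnd1, Ccnd2 and Cdkn2d were chosen for their highest library after their values were seen. Ccna2 was put with mitosis and Gmnn with S phase. The members, lists and comparisons were chosen with earlier results of these data known. Of 201 other listed symbols 197 were in the table. Members with similar paralogues share reads under RSEM. Depth ran from 678819 to 41309569 counts; 3 counts were taken as the floor, for counting error only.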

Additional observations from a re-analysis of the deposited data

Results flagged for a closer look

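At 4 of the 7 sites that both T426 and T3F supplied, the members' mean log2(TPM + 1) differed between the 2 animals by about 1 or more, and in opposite directions: T426 minus T3F was -1.82 in femur and -1.99 at the site labelled liver, but 0.987 in hippocampus and 1.34 in retina. In femur all 38 members were lower in T426, in liver 1 was higher, and in hippocampus 32 and in retina 29 of the 38 were higher. The same shares over all genes were not computed, so these counts cannot be told apart from a shift of the whole library. Each value rests on 1 animal a side, and the difference between sites was not tested.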

How the results depend on the processing

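The counts for the joint test, femur, bone marrow and intestine against brain stayed within 1.5 times under every alternative run. With DESeq2 the count was 3 in duodenum, 18 in muscle and 21 in testis, and its shares of all genes are not given here. With RLE scaling it was 3 in duodenum. With the animal as a replicate block it was 3 in duodenum, 2 in thymus and 2 in spleen; this fit had no value for testis, whose animal gave no other library, and moved no other count by over 1.5 times. Without the 8 libraries that held genes of another organ it was 21 in duodenum, 19 in ovary, 8 in muscle, 20 in testis and 26 in spleen, on 3 residual degrees of freedom. Without the 7 further libraries with genes of another organ, an alternative chosen after seeing the data, it was 1 in duodenum and moved no other count by over 1.5 times. Leaving out 1 library at a time gave 24 to 37 members in the joint test, 24 to 38 in femur, 0 to 10 in duodenum, 0 to 6 in ovary, 0 to 9 in muscle, 37 to 38 in marrow, 32 to 36 in thymus, 13 to 16 in testis, 2 to 10 in spleen, 30 to 35 for intestine against brain and 0 to 0 for T426. On log2(TPM + 0.1) bone ranked 4 and spleen 3; on log2(CPM + 1) thymus ranked 2, marrow 1 and ovary 6; by the median of the members spleen ranked 5 and ovary 4. The S phase minus mitosis value of intestine turned to 0.070 on log2(CPM + 1). Those of thymus, testis and brain kept their sign, and no other organ was checked on that scale. Of 164 calls of single members none changed sign. Lost were 3 with DESeq2, 5 with RLE scaling, 1 without the filter, 1 without the 8 libraries and 14 without the 7 further ones. With the animal block, which had no value for the testis calls, 44 were lost and 107 kept. The cause of these shifts was not tested. Depth limits the T426 and testis libraries most, and in the T173F pancreas too some members rested on 2 counts.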
